A study of Mus musculus with 9 samples.

Results

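The testis is built around Sertoli cells, the somatic cells of the seminiferous tubule that respond to follicle stimulating hormone and androgen and that surround and feed the germ cells. They secrete hormones that act beyond the tubule, such as anti-Müllerian hormone and inhibin, and short-range ligands that act on spermatogonia (SG), such as GDNF and Kit ligand. Inhibin is a dimer of the α subunit with a β subunit, whereas activin is a dimer of β subunits alone, and follistatin binds activin and blocks it.

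The 10 genes described here are the ones that encode these hormones, receptors and niche factors: Amh, Amhr2, Fshr, Inha, Inhba, Inhbb, Gdnf, Kitl, Fst and Cxcl12. They were listed by name from their known roles, by a rule that uses no measured value but with earlier results of these data known, and are 10 of the 32285 genes of the deposited matrices. Each was followed across 10 cell types of the testis and across the 3 genotypes of the study.

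The data are single cell RNA-seq of whole testes from C57BL/6 mice (backcrossed to C57BL/6 J, per the study's methods) at postnatal day 24 (PND24), with 1 library per mouse. The control group had 4 mice, the NELF-B cKO group 2 and the TDP-43 cKO group 3. A cKO mouse carried 1 floxed and 1 null allele of the targeted gene (F/-) together with Stra8-iCre, a recombinase transgene active in SG, which removed exon 3 of Tardbp in the one line and exons 1 to 4 of Nelfb in the other. The control mice were littermates or non-littermates. The recombinase acts in germ cells, so that somatic cells such as Sertoli cells carry the null allele and keep the floxed one. NELF-B is a subunit of a complex that pauses RNA polymerase II, and TDP-43, the product of Tardbp, is a protein that binds RNA and DNA.

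The method reads the 3′ end of each captured transcript and counts unique molecular identifiers (UMIs), so that 1 UMI stands for 1 molecule whatever the length of the transcript. Levels are given in CPM, the UMIs of a gene scaled to the same total of UMIs (1000000) in each mouse and cell type, for sums over at least 20 cells. The libraries held 119203347 to 159407373 UMIs, and no pair shared more than 24 cell barcodes, 0.355% at most. Of 45132 barcodes that passed the filter on genes and mitochondrial transcripts, 27521 fell in clusters that markers named, and 24195 cells were kept after germ cells of the cKO mice with a UMI of the targeted gene had been left out. That step kept 249 of 699, 424 of 908 and 460 of 1055 SG of the TDP-43 cKO mice. Of their early spermatocytes it kept 234 of 474, 495 of 942 and 500 of 1031. In the NELF-B cKO mice it kept 580 of 595 and 395 of 436 SG. Before that step the level of Nelfb in SG was 63.4 to 77.1 CPM for the control mice and 5.12 to 5.92 CPM for the NELF-B cKO mice. In Sertoli cells it was 20.4 to 29.8 and 5.98 to 10.5 CPM. The level of Tardbp in SG was 64.2 to 71.0 CPM for the control mice and 31.3 to 35.4 CPM for the TDP-43 cKO mice, but its 3′ end lies outside the deleted exon and does not check the deletion. A UMI of Tardbp therefore does not show that a cell escaped the deletion. In Sertoli cells Tardbp was at 99.1 to 116 CPM for the control mice and 73.7 to 81.0 CPM for the TDP-43 cKO mice. In either cKO the targeted gene was thus lower, without overlap, in the Sertoli sums too. In Leydig cells Nelfb was at 18.9 to 30.0 CPM for the control mice and 9.09 to 11.1 CPM for the NELF-B cKO mice, without overlap. Leydig Tardbp overlapped, at 60.0 to 86.1 CPM for the control mice and 50.4 to 63.0 CPM for the TDP-43 cKO mice. None of these sums is corrected for RNA from other cells. Early spermatocytes of the control mice held 60.5 to 71.6 CPM of Nelfb and 167 to 193 CPM of Tardbp. The part of such RNA and that of the null allele were not tested.

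The Sertoli class held 3077 cells in 3 clusters, with 170 to 597 cells per mouse. Its label was checked against 10 markers, among them Sox9, Clu, Rhox8 and Cst12, with Amhr2 kept out of the check. Clusters 12 and 15 were high in 10 of 10 markers, and the small cluster 21, of 293 cells, in 4 of 10. Cluster 15 is called the deep Sertoli cluster below, because its 1098 cells held a median of 35404.5 UMIs against 2201.5 in the 1686 cells of cluster 12. The deep cluster gave 45.8% to 77.1% of the Sertoli UMIs of a control mouse, 63.2% and 80.5% of those of the NELF-B cKO mice, and from 84.2% to 95.1% with the TDP-43 cKO. Comparisons of Sertoli cells are therefore given for the whole class and for the deep cluster alone.

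RNA free in the droplet fluid gives UMIs of a gene to cells that do not make it. It was measured in the barcodes of 1 to 100 UMIs of each library, which are too few for a cell, and the levels of the members by cell type are set beside the level in the free RNA of the same library. Levels of receptors and of single clusters are not corrected for it. Germ cell genes, from a list of 12 such as Prm1, Ldhc and Meig1, summed to 3107 to 6473 CPM in the Sertoli cells of control mice, 3375 and 463 CPM in those of both NELF-B cKO mice and 321 to 1320 CPM in those of the TDP-43 cKO mice. From these genes, the share of Sertoli UMIs estimated to be free RNA was 18.3% to 32.6% for the control group, 15.2% and 20.9% for the NELF-B cKO and 25.4% to 32.1% for the TDP-43 cKO. The control range overlapped with both others, and the TDP-43 cKO lay above the NELF-B cKO. The estimate counts every UMI of these genes as free RNA. Cxcl12 lay at 63.7 CPM in free RNA of 1 TDP-43 cKO library but at 4.62 CPM at most in Sertoli cells of any mouse. The Sertoli share of that mouse is thus too high, and the Sertoli fits with free RNA subtracted use it. In Leydig cells the share was 4.38% to 9.92%, 3.96% and 5.61%, and 4.87% to 6.99% for the same groups. In interstitial cells it was 8.74% to 24.5%, 8.17% and 15.0%, and 11.7% to 22.3%. Free RNA was thus a part of the UMIs of a cell type, and a level below that in free RNA does not show that a gene is not made there.

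The promoters of the 2 hormone receptor genes are set beside those of the 2 inhibin β subunit genes, since Fshr and Amhr2 were highest in Sertoli cells, Amhr2 being found in Leydig cells too, and Inhbb and Inhba had their highest levels in different cell types. The 250 bases before the RefSeq start of 4 members are shown, ones whose RefSeq start matches the gene start in the GENCODE M21 annotation, on the GRCm38.p6 build and read 5′ to 3′ on the strand of the gene. Capitals mark a motif. The first 2 are the receptor genes, which each hold 1 of the motifs searched, and the β subunit genes below them hold none.
Amhr2, chr15:102445117-102445366, plus strand: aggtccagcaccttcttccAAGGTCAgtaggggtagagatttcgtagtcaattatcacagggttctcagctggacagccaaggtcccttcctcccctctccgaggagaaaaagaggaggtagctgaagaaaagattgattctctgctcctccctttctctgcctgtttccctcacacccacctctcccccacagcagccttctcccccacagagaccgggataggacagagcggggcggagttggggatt
Fshr, chr17:89200676-89200925, minus strand: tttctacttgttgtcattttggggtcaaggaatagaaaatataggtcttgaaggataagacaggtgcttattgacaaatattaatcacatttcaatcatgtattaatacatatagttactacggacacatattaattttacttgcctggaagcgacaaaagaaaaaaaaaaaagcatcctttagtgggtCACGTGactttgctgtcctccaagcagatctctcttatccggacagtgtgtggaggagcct
Inhbb, chr1:119422249-119422498, minus strand: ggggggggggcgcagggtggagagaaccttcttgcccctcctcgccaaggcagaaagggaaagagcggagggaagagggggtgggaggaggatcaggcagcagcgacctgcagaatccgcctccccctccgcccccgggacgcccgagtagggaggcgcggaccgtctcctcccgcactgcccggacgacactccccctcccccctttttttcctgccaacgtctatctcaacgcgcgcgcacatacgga
Inhba, chr13:16011601-16011850, plus strand: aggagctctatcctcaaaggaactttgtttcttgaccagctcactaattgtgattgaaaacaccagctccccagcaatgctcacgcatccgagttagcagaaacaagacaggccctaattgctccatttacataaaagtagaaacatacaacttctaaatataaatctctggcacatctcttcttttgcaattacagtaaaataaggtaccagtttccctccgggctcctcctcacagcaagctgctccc

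The motifs were searched on both strands. That of SF-1, a nuclear receptor of the steroidogenic tissues, was searched as AAGGTCA. The cAMP response element was searched as TGACGTCA. The E-box was searched as CACGTG. The site of GATA factors was searched as AGATAA. The SF-1 motif of Amhr2 begins 231 bases before the start, and the E-box of Fshr begins 61 bases before it. Of 32851 promoters of the same length, 4.08% hold the SF-1 motif, 1.55% the cAMP response element, 6.02% the E-box and 9.99% the GATA motif. The Inhbb promoter is 68.0% G and C with 21 CG dinucleotides, against a median of 52.4% and 6 over all promoters, and the Fshr promoter is 36.8% G and C with 4. Promoter entries of RefSeq matched 8 of the 10 members, with 9 entries. The 1 further match was a GATA motif 84 bases before 1 of the 2 starts of Gdnf, and the entries of Inha, Kitl and Cxcl12 held none. The Inha entry (75507359-75507608) lies inside the span of the gene given below, so the bases before that span were not searched. The Kitl entry (100015571-100015820) runs past the start of its span. A match is a description of letters and says nothing of binding.

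No member lies next to another on the GRCm38 build. Inha and Inhbb share chromosome 1 (75507077-75510366, plus strand, and 119415465-119422248, minus strand), Amh and Kitl chromosome 10 (80805243-80807648 and 100015630-100100416, both plus), Inhba and Fst chromosome 13 (16011851-16031621, plus, and 114452290-114458951, minus), and Gdnf and Amhr2 chromosome 15 (7810846-7837575 and 102445367-102454633, both plus). Cxcl12 lies on chromosome 6 (117168535-117181367, plus) and Fshr on chromosome 17 (88984952-89200675, minus). Inhba is overlapped by 2 genes and Fst by 1 gene on the other strand, whose reads a count that uses strand keeps apart.

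Fshr, Amh and Inhbb were Sertoli cell genes in these testes. Fshr encodes the receptor for follicle stimulating hormone. It lay at 101, 160, 111 and 125 CPM in the Sertoli cells of the control mice, 116 and 171 CPM in those of both NELF-B cKO mice and 140, 143 and 179 CPM in those of the TDP-43 cKO mice. In the other 9 cell types the highest value of any mouse was 9.64 CPM, in immune cells, and Fshr was below the free RNA of the same library in every one of these sums. The lowest Sertoli value lay above every value of another cell type.

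Amh encodes anti-Müllerian hormone, which makes the Müllerian ducts regress in the male fetus and which Sertoli cells make less of as they mature. Its Sertoli level was 28.3, 18.6, 33.7 and 40.3 CPM in the control mice, 16.1 and 53.9 CPM in the NELF-B cKO mice and 49.9, 36.0 and 37.9 CPM in the TDP-43 cKO mice. The median over 9 mice was 36.0 CPM, some way under the 140 CPM of Fshr. Outside Sertoli cells Amh reached 7.27 CPM at most, in the round spermatids (RS) of 1 mouse, and the 1 sum of another cell type in which it exceeded free RNA was one of myoid cells. The 2 NELF-B cKO mice differed more from each other than the 4 control mice did among themselves.

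Inhbb encodes the βB subunit of inhibin B and of activin B. It lay at 59.3, 66.6, 96.5 and 91.4 CPM in the Sertoli cells of the control mice, 86.8 and 92.3 CPM in those of both NELF-B cKO mice and 104, 80.1 and 95.5 CPM in those of the TDP-43 cKO mice. Its highest value in another cell type was 12.1 CPM, in RS, and the Sertoli values did not overlap with those of any other type.

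Inha and Amhr2 were the most abundant members, and both were also found in Leydig cells, the interstitial cells that make testosterone. Inha encodes the α subunit that all inhibins share, and Amhr2 the type II receptor for anti-Müllerian hormone. In Sertoli cells Inha lay at 855, 716, 1212 and 1283 CPM in the control mice, 733 and 1422 CPM in the NELF-B cKO mice and 1579, 1126 and 1300.5 CPM in the TDP-43 cKO mice. Amhr2 lay at 986, 718, 1199 and 1275 CPM, at 886 and 1192 CPM and at 978, 1002 and 1060 CPM in the same mice. The groups overlapped for both genes.

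In Leydig cells Inha had a median of 465 CPM over 9 mice (298 to 902) and Amhr2 a median of 172 CPM (121 to 255). Sertoli cells were higher than Leydig cells in 9 of 9 mice for both genes, although the ranges of Inha overlapped. Leydig Inha was above the free RNA of its library in 7 of 9 mice and Leydig Amhr2 in 5 of 9. The 2 genes came in different proportions in the 2 cell types. Leydig cells held 1.82 to 3.94 UMIs of Inha per UMI of Amhr2, whereas Sertoli cells held 0.83 to 1.61 and free RNA 0.73 to 1.52. In SG the ratio was 0.72 to 1.37, and both genes were below free RNA in SG of 9 of 9 mice, as in the other germ cells.

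Inhba, the gene of the βA subunit, was near the limit of detection in Sertoli cells. It was highest in interstitial cells, the Pdgfra, Dcn and Tcf21 cells outside the tubule, at 65.8, 63.3, 61.1 and 57.6 CPM in the control mice, 72.8 and 92.6 CPM in the NELF-B cKO mice and 93.1, 58.7 and 92.0 CPM in the TDP-43 cKO mice. Myoid cells, the contractile cells of the tubule wall, had enough cells in 4 mice and gave 13.6 to 86.9 CPM, and Leydig cells gave 4.97 to 19.5 CPM. In Sertoli cells Inhba was at 0 in 3 of 4 control mice, and its highest value was 1.50 CPM, in TDP-43 cKO replicate 1. A count of 0 there allows up to 2.66 CPM in the shallowest Sertoli sum, for counting error alone. Inhba and Inhbb thus had their highest levels in different cell types, with Inhbb at 0 to 9.33 CPM in interstitial cells.

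Fst, the gene of follistatin, was highest in interstitial cells too, at 22.5, 15.5, 58.3 and 34.2 CPM in the control mice, 18.5 and 34.9 CPM in the NELF-B cKO mice and 38.5, 38.6 and 30.7 CPM in the TDP-43 cKO mice. SG came next at 16.9, 14.5, 15.3 and 18.4 CPM, at 7.29 and 25.9 CPM and at 24.2, 11.8 and 14.9 CPM in the same groups. Interstitial cells were higher than SG in 9 of 9 mice, but the ranges overlapped. Fst in SG was above the free RNA of the library in 9 of 9 mice, which was not so for Inha, Amhr2, Fshr, Amh, Inhbb or Kitl in SG, each below it in 9 of 9. Sertoli cells had a median of 4.51 CPM (1.50 to 12.0).

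Kitl encodes the ligand of the receptor KIT, which differentiating SG and Leydig cells carry. It was the most widely spread member among somatic cells. In Sertoli cells it lay at 290, 345, 392 and 362 CPM in the control mice, 212 and 418 CPM in the NELF-B cKO mice and 470, 399 and 436 CPM in the TDP-43 cKO mice. Leydig cells had a median of 213 CPM (176 to 286), interstitial cells 208 CPM (139 to 272), and myoid cells of 4 mice 121 CPM. Endothelial cells of the 3 mice with enough of them had 387 to 533 CPM, and did not differ from Sertoli cells beyond their spread. Sertoli cells were above Leydig cells in 9 of 9 mice, and Leydig above interstitial cells in 7 of 9. Every somatic type but immune cells was above free RNA in every mouse, and every germ cell type was below it.

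Gdnf encodes the ligand that keeps spermatogonial stem cells dividing, and was scarce in Sertoli cells, as Fst was. It lay at 2.66, 7.32, 5.62 and 6.01 CPM in the Sertoli cells of the control mice, 4.11 and 12.8 CPM in those of both NELF-B cKO mice and 16.5, 12.0 and 10.5 CPM in those of the TDP-43 cKO mice. These levels rest on 3, 31, 11 and 24 UMIs, on 11 and 62 UMIs and on 308, 84 and 93 UMIs. Sertoli Gdnf was above free RNA in 9 of 9 mice. Interstitial cells (median 2.58 CPM, 0 to 7.20) and Leydig cells (2.33 CPM, 0 to 7.17) overlapped with Sertoli cells, which were higher than interstitial cells in 8 of 9 mice.

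Cxcl12, the gene of a chemokine that draws and holds stem cells in several tissues, did not exceed its level in free RNA in Sertoli cells. Its Sertoli level was 0 to 0.51 CPM in the control mice and 4.62 CPM at most, below the free RNA of the library in 9 of 9 mice. Endothelial cells were highest with 580, 747 and 849 CPM in the 3 mice measured. Interstitial cells followed with a median of 300.0 CPM (223 to 454), then Leydig cells with 63.6 CPM (35.3 to 103) and myoid cells with 60.7 CPM (52.1 to 104). Endothelial and interstitial values did not overlap, nor did interstitial and Leydig values, whereas Leydig and myoid values did, and in the 4 mice with both types the myoid value was the higher in each.

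**Figure D1:**
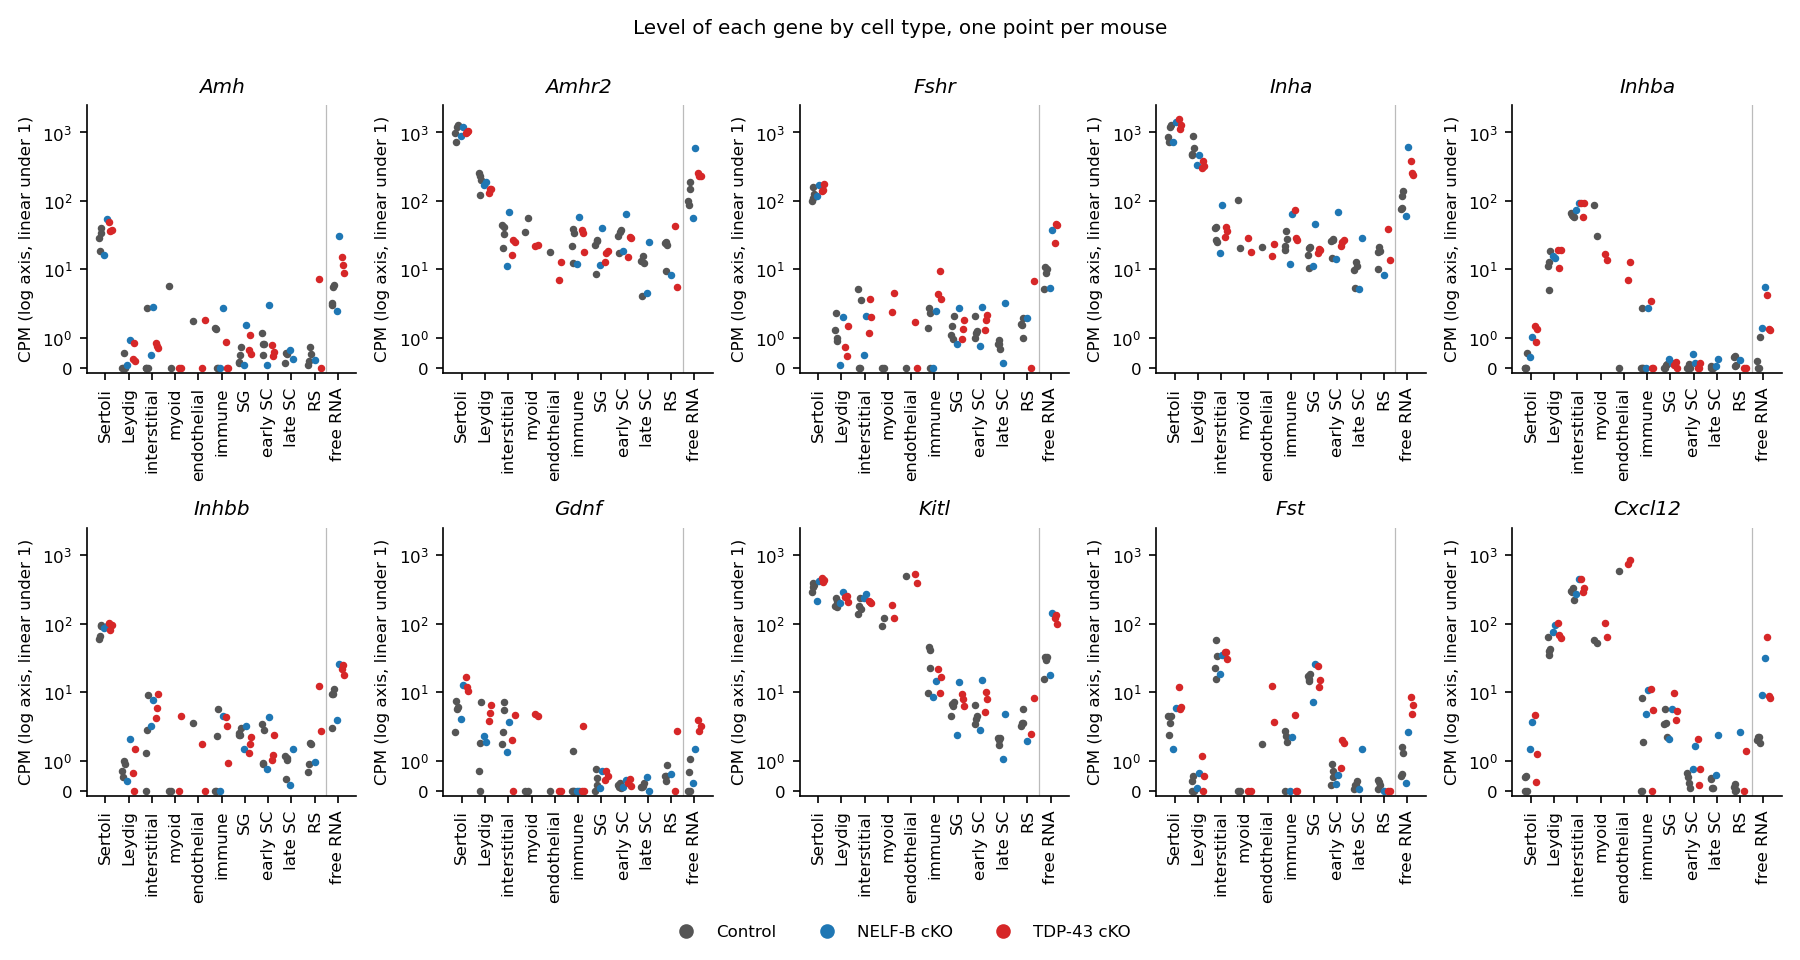
Level of each of the 10 genes in CPM (log axis, linear under 1) by cell type and in free RNA, with 1 point per mouse coloured by genotype. Fshr, Amh and Inhbb stand out in Sertoli cells, Inha and Amhr2 in Sertoli and Leydig cells, Kitl in the somatic types, and Inhba, Fst and Cxcl12 in interstitial cells, with Fst also in SG and Cxcl12 highest in endothelial cells.

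The receptors of the niche ligands were listed beside the members. Gfra1 and Ret, which form the receptor of GDNF, were highest in SG, with medians of 41.4 and 20.6 CPM. Kit was highest in Leydig cells at 102 CPM and came to 86.6 CPM in SG. Ackr3, a receptor that takes up CXCL12, had medians of 128 CPM in endothelial cells and 23.9 CPM in Sertoli cells. Among the receptors of the activin family, Tgfbr3, which helps inhibin to bind, had medians of 352 CPM in interstitial cells and 317 CPM in Leydig cells but 3.60 CPM in Sertoli cells. Acvr2b, a type II activin receptor, had a median of 74.0 CPM in SG, and Acvr2a one of 94.5 CPM in early spermatocytes (early SC).

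SG fell in 2 clusters, and Fst was not even between them. The members and the niche receptors had been kept out of the genes used for clustering. Cluster 8, of 1109 cells, was led by Glis3, Egr4, Erg, Trim71, Zbtb16 and Gfra1 and is called Zbtb16-high, and cluster 3, of 2327 cells, is called Zbtb16-low. Zbtb16, a transcription factor gene of early SG, lay at 294 to 475 CPM in the former and 59.0 to 80.7 CPM in the latter. Since both clusters come from the same libraries, these values are a description.

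Fst lay at 30.1 to 52.7 CPM (median 38.9) in Zbtb16-high SG and at 1.33 to 4.71 CPM in Zbtb16-low SG. It was higher in the former in 9 of 9 mice, by 8.03-fold to 26.4-fold with a median of 13.3-fold. Its level in Zbtb16-high SG overlapped with that in interstitial cells. Cxcl12 was also higher there in 9 of 9 mice, with 4.36 to 16.3 against 0.50 to 3.70 CPM and a median ratio of 6.30. Over all SG, Cxcl12 was above the free RNA of its library in 4 of 9 mice and below it in 5. Inha did not separate the clusters, at 9.06 to 37.7 and 11.1 to 52.2 CPM, and was higher in Zbtb16-high SG in 4 of 9 mice. Inhbb was lower in Zbtb16-high SG in 9 of 9 mice, at 4.14 CPM at most in either.

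The receptors fell on the same 2 clusters. Gfra1 had 82.8 to 168 CPM in Zbtb16-high and 1.53 to 4.81 CPM in Zbtb16-low SG, and Ret 45.3 to 74.0 and 0.48 to 2.46 CPM. Kit went the other way, with 15.2 to 19.2 CPM in Zbtb16-high and 104 to 185 CPM in Zbtb16-low SG. None of these ranges overlapped between the clusters. Transcripts of the receptor for Kitl and of that for Gdnf were therefore highest in different SG clusters in every mouse.

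**Figure D2:**
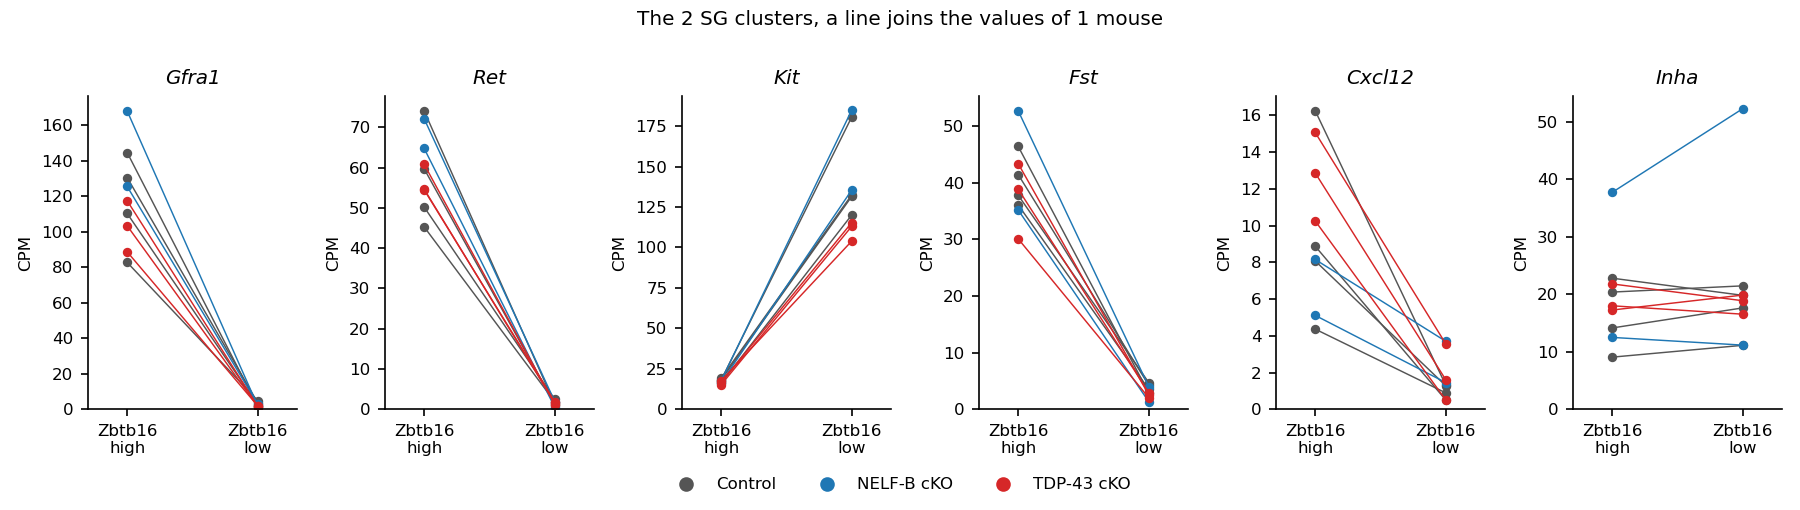
CPM of 6 genes in the Zbtb16-high and Zbtb16-low SG clusters, with a line for each of the 9 mice coloured by genotype. Gfra1, Ret, Fst and Cxcl12 fall from the former to the latter in 9 of 9 mice, Kit rises in 9 of 9, and Inha shows no common direction.

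The members also varied within Sertoli cells. Fshr lay at 5.4 to 50.7 CPM in cluster 12, at 119 to 211 CPM in the deep cluster and at 200.2 to 551 CPM in cluster 21, which had enough cells in 7 mice. Kitl lay at 61.8 to 163, at 296 to 483 and at 426 to 920 CPM in the same clusters. Inha and Amhr2 were highest in the deep cluster and lowest in cluster 21. The clusters also differed in depth, with a median of 3638 UMIs in cluster 21. Fshr and Kitl are the longest members, at 215.7 and 84.8 kb, whereas Inha and Amhr2 span 3.29 and 9.27 kb. The part of depth and of gene length in these levels was not tested. Since the deep cluster gave a larger share of the UMIs in the TDP-43 cKO mice, a level summed over Sertoli cells moves with this share as well as with the level in each cluster.

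The first question on genotype was whether the hormones and niche factors of Sertoli cells differed in the TDP-43 cKO mice. Their germ cells were the target of the deletion, and their Sertoli sums, not corrected for free RNA, also held less Tardbp. None of the 9 members tested passed the limit, with Inhba too low to be tested. All genes gave 2.84% called (436 of 15347) in this comparison by edgeR's quasi-likelihood test, at a Benjamini-Hochberg adjusted p under 0.05 over all genes, a count that became 0 on leaving out any 1 of the 4 control or 3 TDP-43 cKO mice. Of the 9 members, 8 had a fitted value above the control and 1 below, and their median log2 fold change was 0.41, against 0.01 over all genes tested. In the deep cluster alone the median of the 9 members was 0.17, against 0.024 over all genes tested there. DESeq2 called 22% of genes and 0 members, and 3 members had an unadjusted p under 0.05 in the main test, of 5006 genes.

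Gdnf came nearest to the limit. Its mean was 5.4 ± 1.97 CPM (SD, n = 4) in the control mice and 13 ± 3.16 CPM (SD, n = 3) in the TDP-43 cKO mice, and the 3 TDP-43 cKO values were above the 4 control values. The log2 fold change was 1.22 (SE 0.42, 95% interval 0.28 to 2.16), with an adjusted p of 0.0856. It was called without NELF-B cKO replicate 1 (adjusted p = 0.0253), without NELF-B cKO replicate 2 (0.0262) and with only the 2 genotypes compared in the fit (0.0256), and the adjusted p ranged up to 0.260 over 18 alternatives, all with a higher level in the TDP-43 cKO. In the deep cluster alone the log2 fold change was 0.88 with an adjusted p of 0.180. The larger share of the deep cluster in the TDP-43 cKO mice moved with this difference, and its part was not tested beyond that fit.

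Fst in Sertoli cells rested on 40 UMIs over the 4 control mice and 316 over the 3 TDP-43 cKO mice. It lay at 4.43, 2.36, 3.57 and 4.51 CPM in the former and at 12.0, 5.59 and 6.08 CPM in the latter, without overlap. Its log2 fold change was 1.14 (SE 0.49) with an adjusted p of 0.143, and 0.85 with an adjusted p of 0.320 in the deep cluster. Free RNA held more Fst in the 3 TDP-43 cKO libraries than in the 4 control libraries as well.

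Kitl was the third tested member whose values did not overlap, with 347 ± 42.6 CPM (SD, n = 4) in the control mice and 435 ± 35.2 CPM (SD, n = 3) in the TDP-43 cKO mice. The log2 fold change was 0.34 (SE 0.22) with an adjusted p of 0.308, and the gap between the highest control (392 CPM) and the lowest TDP-43 cKO mouse (399 CPM) was small. In the deep cluster alone the log2 fold change was 0.17 with an adjusted p of 0.593. Free RNA held at least 100.2 CPM of Kitl in the TDP-43 cKO libraries and 33.0 CPM at most in the control libraries. With free RNA subtracted the log2 fold change was 0.26 with an adjusted p of 0.413 by edgeR, and the part of free RNA was not tested beyond that. Thus 3 of 9 members lay higher in each TDP-43 cKO mouse than in each control mouse, where 16.6% of all genes tested did. None lay lower in each, where 22.4% of genes did. Inhba, which was not tested, did not overlap either, at 0.50 CPM at most in the control mice and 0.86 CPM at least in the TDP-43 cKO mice, but these levels are under what a count of 0 allows in the shallowest sum.

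The 95% intervals of the other Sertoli cell members included 0. The log2 fold changes were 0.47 for Amh (95% interval -0.42 to 1.35), 0.41 for Inha (-0.22 to 1.03), 0.32 for Fshr (-0.11 to 0.75), 0.26 for Inhbb (-0.17 to 0.68) and -0.03 for Amhr2 (-0.48 to 0.42). Adjusted p-values ran from 0.276 for Fshr to 0.942 for Amhr2. A change of the size seen for Gdnf lay outside the intervals of Fshr, Inha, Inhbb and Amhr2. In the deep cluster the corresponding values were 0.27 for Amh, 0.17 for Inha, 0.12 for Fshr, 0.025 for Inhbb and -0.25 for Amhr2, with 0 members called, where 2.6% of genes were. Cxcl12 had an adjusted p of 0.120, with 3 UMIs in the control mice taken as a group, and its fitted fold change, drawn in the plot of fold changes, is not read further because Cxcl12 lay below free RNA in 9 of 9 mice.

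The same question was asked of NELF-B, where 0 of 9 members and 0% of 15347 genes were called by edgeR, with 1865 genes and 1 member at an unadjusted p under 0.05. DESeq2 called 0.597% of the genes it tested and 0 members. Fitted values were above the control for 8 members and below it for Kitl, with a median log2 fold change of 0.20 against 0.00 over all genes. The smallest adjusted p was 0.374, that of Cxcl12, the 1 member of 9 higher in both NELF-B cKO mice than in each control mouse, where 10.3% of genes were. None of the 9 was lower in both, where 9.48% of genes were.

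The 2 NELF-B cKO mice stood apart from each other. Replicate 1 was the lower in 9 of 9 members tested and replicate 2 the higher, with 16.1 and 53.9 CPM of Amh, 4.11 and 12.8 CPM of Gdnf, and 212 and 418 CPM of Kitl. The intervals are wide in turn: the log2 fold change of Gdnf was 0.64 (-0.45 to 1.72), that of Kitl -0.12 (-0.68 to 0.44) and that of Fst 0.09 (-1.23 to 1.40). In the deep cluster alone these log2 fold changes were 0.46, -0.19 and 0.040. The germ cell genes differed between these mice too, with 3375 CPM in Sertoli cells of replicate 1 and 463 CPM in those of replicate 2. So did the germ cells kept, with 410 RS and 348 late spermatocytes in replicate 1 and 11 and 37 in replicate 2. The deep cluster was 16.0% and 23.7% of their Sertoli cells. The part of these differences in the spread was not tested. Without replicate 2 the fitted value turned below the control for Amh (-0.90), Amhr2 (-0.23), Fshr (-0.10), Fst (-1.25), Gdnf (-0.47) and Inha (-0.47), and without replicate 1 that of Kitl turned above it (0.30).

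The cKO genotypes were also compared with each other. Again 0 of 9 members and 0% of genes were called, with 583 genes and 0 members at an unadjusted p under 0.05, and DESeq2 called 0.0587% of genes and 0 members. None of the 9 members lay higher in each TDP-43 cKO mouse than in both NELF-B cKO mice (9.53% of genes) or lower in each (6.76%). The values for Gdnf were 0.59 (95% interval -0.53 to 1.70), for Fst 1.05 (-0.27 to 2.37) and for Kitl 0.46 (-0.13 to 1.05), so that a difference between the deletions was not shown for them and was not bounded closely either. The share of free RNA in Sertoli UMIs, as estimated from germ cell genes, did not overlap between the cKO genotypes and moved with this comparison. That estimate was too high in 1 TDP-43 cKO mouse, and 0 members were called with free RNA subtracted.

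**Figure D3:**
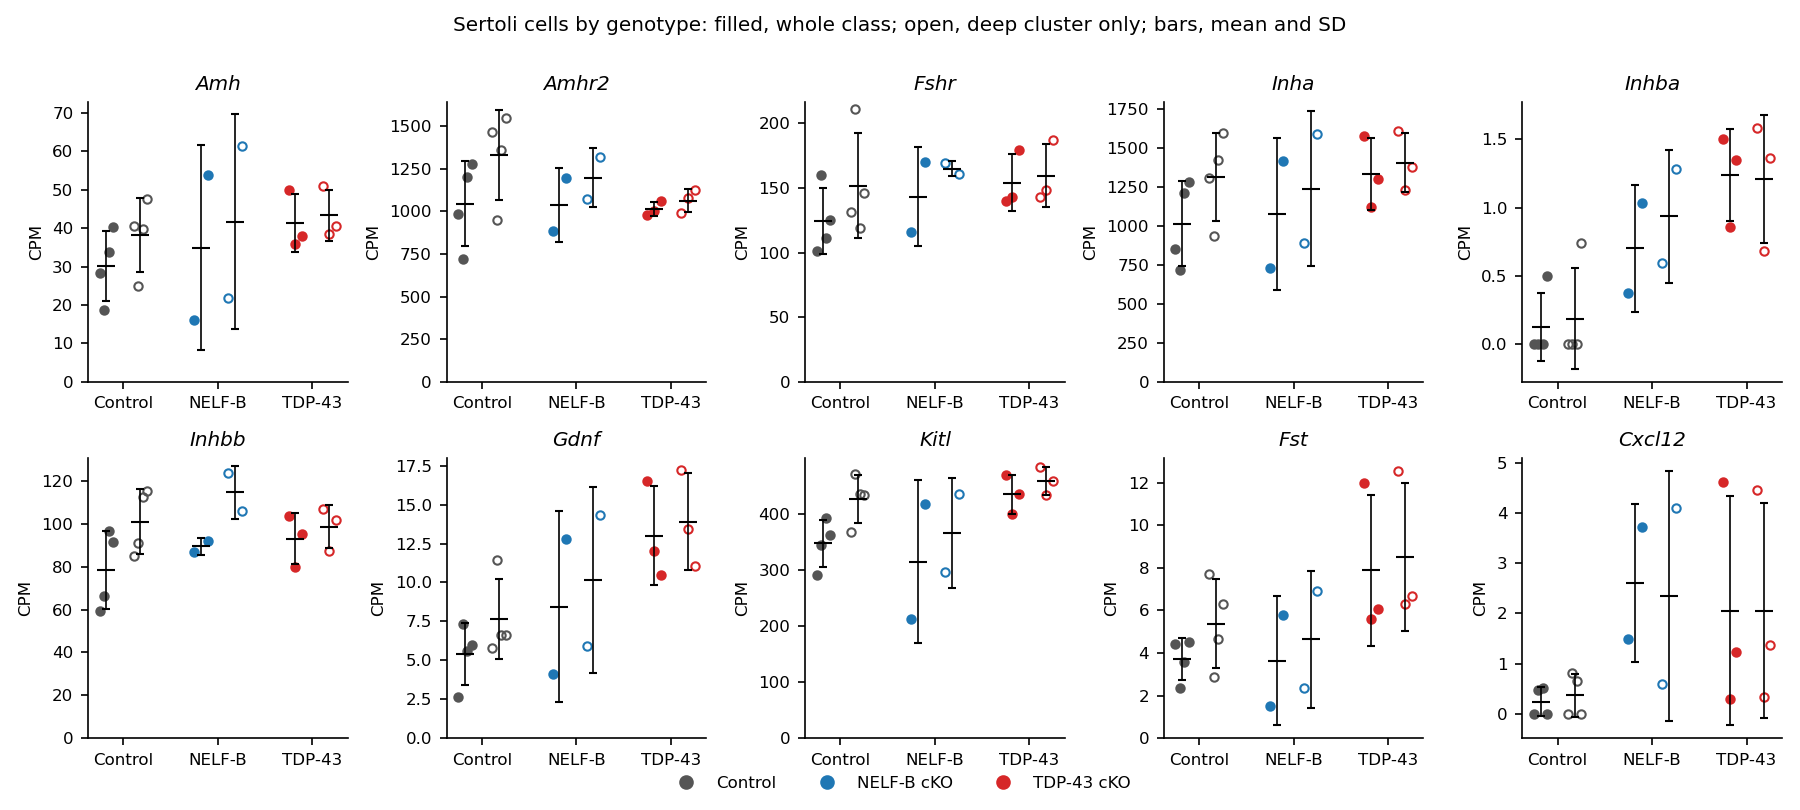
CPM of the 10 genes in Sertoli cells by genotype, with 1 point per mouse, filled for the whole class and open for the deep cluster, and bars for the mean and SD. Gdnf, Kitl and Fst of the 3 TDP-43 cKO mice lie above those of the 4 control mice in the whole class, as do those of Inhba near 0, and the NELF-B cKO mice spread widely.

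**Figure D4:**
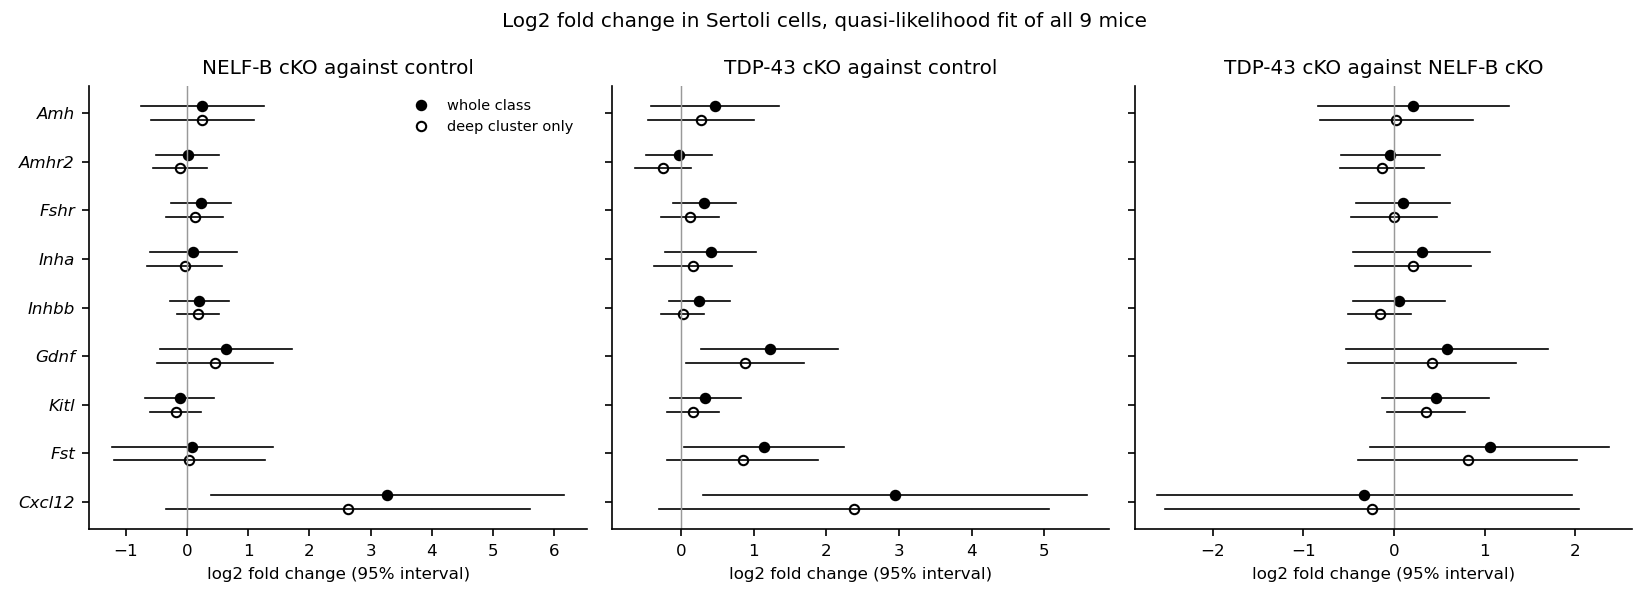
Log2 fold change with its 95% interval for the 9 members tested in Sertoli cells in the 3 comparisons, filled for the whole class and open for the deep cluster alone. The intervals of Gdnf, Fst and Cxcl12 exclude 0 in the TDP-43 cKO for the whole class before adjustment, that of Cxcl12 resting on 3 control UMIs, and the fitted values of Gdnf and Fst are smaller in the deep cluster.

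The pathways around the members were followed with lists, whose counts in the TDP-43 cKO stand beside the 2.84% of all genes tested that were called. Of 15 tested receptors and mediators of activin, inhibin, AMH and BMP signals, 1 was called in the TDP-43 cKO: Smad4, the mediator that the activin and BMP branches share, with a log2 fold change of 0.63 (adjusted p = 0.0493). Of 11 transcription factors of Sertoli cells, 1 was called: Sox9, a factor of Sertoli cell fate, at 0.71 (adjusted p = 0.0493 by edgeR). Of 11 genes of the cAMP signal that follows FSH, 2 were called: Prkar2b, a regulatory subunit of protein kinase A, at 1.03 (adjusted p = 0.0493), and Crem, a cAMP-responsive factor that spermatids make in an activating form, at -1.14 (adjusted p = 0.0494).

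Sox9 lay at 182, 252, 233 and 249 CPM in the control mice and at 432, 327 and 353 CPM in the TDP-43 cKO mice, without overlap. In the deep cluster alone the log2 fold changes of these 4 genes were smaller and the calls were lost, with 0.47 for Smad4 (adjusted p = 0.0724), 0.39 for Sox9 (0.0829), 0.87 for Prkar2b (0.0572) and -0.49 for Crem (0.0841). The median log2 fold changes of the 3 lists were 0.33, 0.33 and 0.25.

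The other lists gave 1 call. The 4 tested niche receptors, the 9 secreted and transport products of Sertoli cells, led by Clu, Cst12 and Ctsl, and the 8 tested paracrine ligands, led by Dhh, Pdgfa and Wnt4, gave 0 calls in the TDP-43 cKO by edgeR, with 0, 3 and 4 genes at an unadjusted p under 0.05. The median log2 fold change was 0.24 for the secreted products and 1.14 for the paracrine ligands. Germ cell genes gave 1 lower call of 12, Acrv1 at -3.63 (adjusted p = 0.0493), with a median of -3.37. No list gene was called in Sertoli cells in the NELF-B cKO or between the cKO genotypes, where the numbers at an unadjusted p under 0.05 were up to 5 and up to 6 per list.

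Leydig cells were compared next. Of the 6 members tested there, 0 were called in any comparison by edgeR, as were 0% of 13553 genes, while DESeq2 called 8.67% of genes in the TDP-43 cKO, among them Inha and Cxcl12, and 0.393% in the NELF-B cKO and 0.602% between the cKO genotypes, with 0 members in either. Inha was lower and Cxcl12 higher by DESeq2, and neither passed the main test.

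Inha lay at 465, 477, 902 and 588 CPM in Leydig cells of the control mice, 329.8 and 473 CPM in those of both NELF-B cKO mice and 298, 385 and 323 CPM in those of the TDP-43 cKO mice. The 3 TDP-43 cKO mice were below the 4 control mice, where 12.4% of genes tested were lower in the same way. The log2 fold change was -0.81 (SE 0.25, 95% interval -1.36 to -0.25) with an adjusted p of 0.103. The adjusted p was 0.0166 by DESeq2, 0.0197 without a filter on low counts, 0.0426 and 0.0425 without NELF-B cKO replicates 1 and 2, and 0.0474 with only the 2 genotypes, and it reached 0.288 over 18 alternatives. Every alternative gave a lower level in the TDP-43 cKO, from -0.96 to -0.60.

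Free RNA held 387, 256 and 241 CPM of Inha in the TDP-43 cKO libraries and 140.3 CPM at most in the control libraries. Leydig Inha was thus below the free RNA of its library in TDP-43 cKO replicate 1 and above it in the other two, and above it in each control mouse. With free RNA subtracted, the log2 fold change was -0.95 with an adjusted p of 0.112, and the part of free RNA was not tested beyond that. In Sertoli cells of the same mice the value of Inha was 0.41 and the opposite in sign. The difference between the cell types was not tested. In the NELF-B cKO the Leydig log2 fold change was -0.52 (-1.15 to 0.11) with an adjusted p of 0.523.

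Cxcl12 lay at 63.6, 39.7, 35.3 and 42.1 CPM in Leydig cells of the control mice, 75.6 and 96.8 CPM in those of both NELF-B cKO mice and 103, 68.0 and 61.9 CPM in those of the TDP-43 cKO mice. Control replicate 1 overlapped with TDP-43 cKO replicate 3, and the NELF-B cKO mice were above every control mouse, as 6.75% of genes tested were. The log2 fold changes were 0.83 (SE 0.24, 95% interval 0.29 to 1.36, adjusted p = 0.0891) in the TDP-43 cKO and 0.99 (0.41 to 1.57, adjusted p = 0.399) in the NELF-B cKO. In the former the adjusted p was 0.0362 by DESeq2 and 0.0128 without a filter, and 0.309 at most over 18 alternatives. The cKO genotypes share their control mice, so their likeness is not independent.

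Free RNA held 8.35 to 63.7 CPM of Cxcl12 in the TDP-43 cKO libraries and 9.16 and 31.3 CPM in the NELF-B cKO libraries, above the 2.24 CPM at most of the control libraries, and moved in the same direction as Leydig Cxcl12. With free RNA subtracted the TDP-43 cKO value was 0.73 with an adjusted p of 0.196. Interstitial cells, which hold more Cxcl12 than Leydig cells, numbered 59 to 115 per control mouse, 389 and 429 per NELF-B cKO mouse and 157 to 843 per TDP-43 cKO mouse. The part of free RNA and of these cells in the Leydig values was not tested beyond the subtraction.

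Amhr2 and Kitl in Leydig cells did not pass. Amhr2 lay at 255, 121, 229 and 203 CPM, at 172 and 192 CPM and at 129, 149 and 147 CPM, and its log2 fold change in the TDP-43 cKO was -0.46 (-0.94 to 0.01, adjusted p = 0.277). Free RNA was an estimated 4.87% to 6.99% of Leydig UMIs in the 3 TDP-43 cKO mice. Leydig Amhr2 lay below its level in free RNA, 232 CPM at least, in each of them. It was the 1 member of 6 lower in each TDP-43 cKO mouse than in each NELF-B cKO mouse (9.97% of genes tested), and Gdnf the 1 that was higher (14.5%). Against the control, 0 of 6 members were lower in both NELF-B cKO mice (8.98% of genes) and 0 were higher in each TDP-43 cKO mouse (5.82%). The log2 fold change of Kitl was 0.29 in the TDP-43 cKO and 0.36 in the NELF-B cKO, with adjusted p-values of 0.438 and 0.527.

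**Figure D5:**
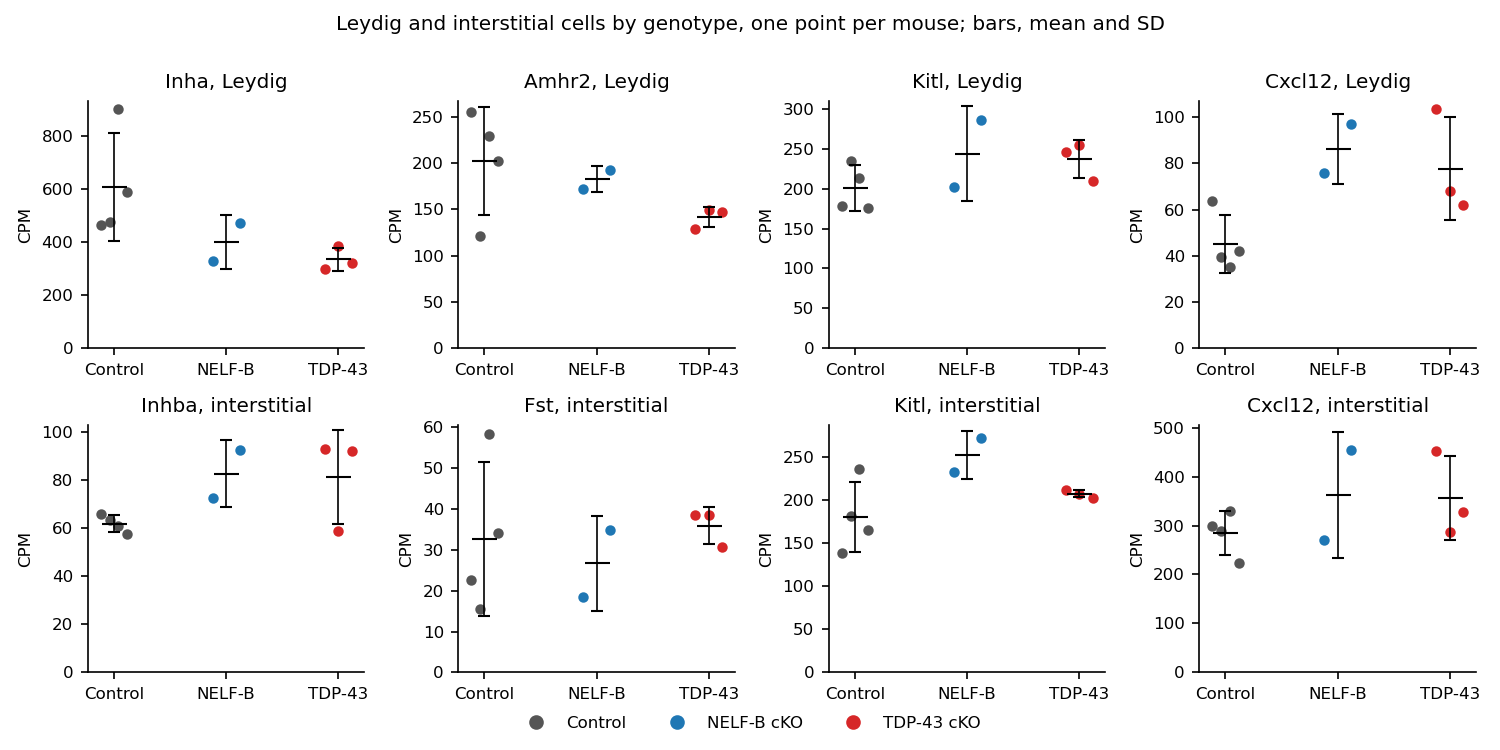
CPM of 4 genes in Leydig cells (top) and 4 in interstitial cells (bottom) by genotype, with 1 point per mouse and bars for the mean and SD. Leydig Inha of the 3 TDP-43 cKO mice lies below that of the 4 control mice, and Leydig Cxcl12 of the NELF-B cKO mice lies above.

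In interstitial cells 0 of 7 members tested and 0% of 12296 genes were called by edgeR in each comparison. DESeq2 called 0 members and 0% of genes in the NELF-B cKO, 5.88% in the TDP-43 cKO and 0.155% between the cKO genotypes. Inhba was higher in both NELF-B cKO mice than in the control mice (5.4% of genes tested), with means of 82.7 ± 14 CPM (SD, n = 2) and 61.9 ± 3.5 CPM (SD, n = 4). Its log2 fold change was 0.46 (-0.04 to 0.96) there, with an adjusted p of 0.924, and 0.41 (-0.05 to 0.87) in the TDP-43 cKO, with an adjusted p of 0.358. Kitl had 0.54 (0.11 to 0.97) in the NELF-B cKO, with an adjusted p of 0.924, and was lower in each TDP-43 cKO mouse than in each NELF-B cKO mouse (7.84% of genes tested). Fst and Cxcl12 overlapped between the genotypes. None of the 7 members was lower in both NELF-B cKO mice (3.16% of genes), higher or lower in each TDP-43 cKO mouse than in each control mouse (7.98% and 10.5%), or higher in each TDP-43 cKO mouse than in both NELF-B cKO mice (15.2%).

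In germ cells the members tested were 8 in SG and 6 in early SC, and 0 were called in any comparison by edgeR in the main test or by DESeq2. Germ cells left out for a UMI of the targeted gene were not in these tests, and no member was called by edgeR with them kept. With free RNA subtracted, Inha and Amhr2 were called lower in early SC of the TDP-43 cKO (adjusted p = 0.0388 and 0.0408 by edgeR), where the main log2 fold changes were 0.14 and -0.21. Both genes lay below free RNA in early SC of 9 of 9 mice, and no fold is given for the subtracted values. For germ cells the share of free RNA was estimated from Prm1, Prm2, Tnp1, Tnp2, Acrv1 and Tsga8 alone. In early SC it was 5.24% to 11.2% for the control mice and 22.4% to 39.9% for the TDP-43 cKO mice. In SG it was 3.81% to 8.70% and 13.4% to 74.7%. The 74.7%, of TDP-43 cKO replicate 1, sets 11.6 CPM of these genes in SG against 15.5 CPM in free RNA. Free RNA of that library held 387 CPM of Inha. Its SG held 145 UMIs of Inha in 8380289 and its early SC 85 in 3890180, fewer than the estimated shares would bring. The shares of this mouse are thus too high. The subtracted calls moved with the estimated share, and its part was not tested. Inha in early SC of the NELF-B cKO was called without NELF-B cKO replicate 1 (log2 fold change 1.55, adjusted p = 0.0457, against 0.79 and 0.418 with it). Kitl in SG was called between the cKO genotypes without NELF-B cKO replicate 2 (1.73, adjusted p = 0.0292, against -0.012 and 0.993 with it), and lay below free RNA there. The shares of genes called by edgeR were 0.0165%, 0.00549% and 0.297% in SG for the NELF-B cKO against control, the TDP-43 cKO against control and the TDP-43 cKO against the NELF-B cKO, and 0.304%, 4.22% and 0.557% in early SC. By DESeq2 they were 2.17%, 8.68% and 5.11% in SG and 10.3%, 14.2% and 4.76% in early SC. Fst in SG, the member that stood above free RNA there, had log2 fold changes of 0.05 (-0.96 to 1.07) in the NELF-B cKO and 0.15 (-0.75 to 1.05) in the TDP-43 cKO. Inhbb was lower in SG of each TDP-43 cKO mouse than of each control mouse (16.2% of genes tested), at levels below free RNA. It was the 1 of the 8 members without overlap in SG, where 9.57% and 9.68% of genes lay higher and lower in both NELF-B cKO mice than in the control mice, 6.25% higher in the TDP-43 cKO than in the control mice, and 12.8% and 19.9% higher and lower in the TDP-43 cKO than in the NELF-B cKO mice. Of the lists, 1 gene was called in a germ cell type: Fgf2, a growth factor gene, in early SC of the TDP-43 cKO at 3.26 (adjusted p = 0.0239). Over the cell types other than Sertoli, immune and myoid cells included, 0 of 30 pairs of member and cell type were called in the NELF-B cKO, 0 of 32 in the TDP-43 cKO and 0 of 30 between them, with 3, 3 and 1 at an unadjusted p under 0.05. In immune cells the share of genes called was 0% by edgeR and 0.0839%, 7.64% and 0% by DESeq2 in the 3 comparisons, and in myoid cells, compared in the TDP-43 cKO alone, 0% and 1.19%, with 0 members called.

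The genes most like each member across cell types were named by Pearson's r of log2(CPM + 1) over 74 sums of mouse and cell type and 18383 genes. The sums share libraries, so r is a description. Inha and Amhr2 were among each other's nearest, at 0.96, with Defb19 and Clu beside them. Amh was nearest to Slc6a14, Cst12 and Etd (0.93 to 0.92), Fshr to Map3k21, 4930573H18Rik and Gm32443 (0.93 to 0.92) and Inhbb to Kndc1, Gm14569 and Clec12b (0.92 to 0.91). Inhba was nearest to Ccdc80, Serping1 and Col5a2 (0.95 for each), Cxcl12 to Ppic, Htra1 and Itm2a (0.96 for each) and Kitl to Ccdc28b, Sparc and Rnd3 (0.96 to 0.95). Dlk1 and Mest were among the genes nearest to Fst (0.86 and 0.84), and Gdnf was nearest to Lama1, L3mbtl4 and Rhou (0.80 to 0.78), the weakest likeness of the 10.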

How the data were processed

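Single cell RNA-seq libraries of 9 testes (10x, 3′ end) were mapped by the authors to mm10 with Cell Ranger (6.1.1 and 7.0.0 in the submitters' processing notes, Cell Ranger 4 in the file headers). The deposited values are raw UMI counts of 32285 genes per barcode, before any selection of cells, and the authors' own analysis used Seurat 4.2.0 and DESeq2 1.36.

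Barcodes were kept above 1000 genes and below 10% of mitochondrial UMIs, and were clustered with scanpy 1.11.5 and leidenalg 0.10.2 (Leiden, resolution 0.8, without the members and the niche receptors), and clusters were named from marker lists. Scrublet marked 0.342% of cells as doublets, and these were kept in the main test. Whether the caller missed doublets was not tested. Macrophage markers did not separate from those of other immune cells, and 1 immune class was tested in place of macrophages. The UMIs of a cell type were added up within each mouse (at least 20 cells) and tested with edgeR 4.0.16 (filterByExpr, TMM, quasi-likelihood test, all 9 mice, two-sided) in R 4.3.3, with Benjamini-Hochberg adjustment over all genes and a limit of 0.05. The test was checked on simulated counts. DESeq2 1.42.0, RLE factors, no filter, each mouse left out, only 2 genotypes, the replicate number as a block, resolution 1.2, no called doublets, thinning to 5000 UMIs, no germ cell left out (for levels and for the tests in SG and early SC) and subtraction of free RNA were alternatives, and single Sertoli clusters were added after the data had been seen. Each library being 1 mouse, p-values measure the spread between mice. Intervals of levels were not computed, and a count of 0 was given its limit of 3 counts. Sequences are RefSeq's, of GRCm38.p6.

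The members and lists were chosen with earlier results of these data known. Genes named are the 10 members, the 3 nearest genes of each by Pearson's r (genes of at least 10 CPM in 1 sum, of which 1 is not reported here), and of each list up to 3 called genes with the smallest adjusted p or, where none was called, the 3 with the highest Sertoli level. Receptor levels and the SG clusters are named outside that rule, as values chosen after they had been seen. The RNA-seq of sorted cells and the PRO-seq of the study were not used here.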

Additional observations from a re-analysis of the deposited data

Results flagged for a closer look

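Gdnf in Leydig cells put the cKO genotypes on opposite sides of the control mean of 2.41 CPM, with 5.08 CPM in the TDP-43 cKO mice and 2.11 CPM in the NELF-B cKO mice, and the log2 fold change between them was 1.24 with an adjusted p of 0.718 by edgeR. The sides hold for the CPM and not for the fitted values, which were 1.41 (95% interval -0.44 to 3.26) in the TDP-43 cKO and 0.17 (-1.84 to 2.19) in the NELF-B cKO.

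Free RNA, which entered the comparisons between genotypes only where it was subtracted, held more of every member in each of the 3 TDP-43 cKO libraries than in each of the 4 control libraries. The lowest value of a TDP-43 cKO library was 8.99 CPM for Amh (6.00 in the highest control library), 232 for Amhr2 (192), 24.3 for Fshr (10.9), 241 for Inha (140.3), 1.28 for Inhba (1.04), 18 for Inhbb (11.2), 2.71 for Gdnf (1.04), 100.2 for Kitl (33.0), 4.74 for Fst (1.60) and 8.35 for Cxcl12 (2.24). In both NELF-B cKO libraries free RNA also held more Inhba (1.39 CPM at least) and Cxcl12 (9.16 CPM at least) than in the control libraries. The differences were not tested, since free RNA is a share of a library whose cells differ in number and kind. The share of all genes that lay higher in this way is not given, so the pattern is not shown to be particular to the members. In free RNA the germ cell genes listed with Prm1, Ldhc and Meig1 went the other way. They summed to 1001 to 5176 CPM in the TDP-43 cKO libraries and 13268 to 19875 CPM in the control libraries. The part of this in the levels of the members was not tested.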

How the results depend on the processing

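No member was called in Sertoli cells in the main test, and the alternatives that called 1 were 3, all for Gdnf in the TDP-43 cKO (without either NELF-B cKO mouse, and with only the 2 genotypes compared), so that the count over mice left out ran from 0 to 1. In the other cell types 0 members were called in the main test, against 2 by DESeq2, 3 without a filter and 3 with free RNA subtracted in the TDP-43 cKO, 1 with only the 2 genotypes compared, and 0 to 1 with a mouse left out in either cKO. The calls were of Inha and Cxcl12 in Leydig cells, Inha in immune cells (without a filter), Amhr2 in interstitial cells and Inha and Amhr2 in early SC (free RNA subtracted), and Inha in early SC of the NELF-B cKO (without NELF-B cKO replicate 1). Between the cKO genotypes Kitl in SG was called without NELF-B cKO replicate 2. The genes called in Sertoli cells moved more. In the TDP-43 cKO 436 became 3373 by DESeq2, 92 with RLE factors, 1657 without a filter, 1691 without doublets, 1084 with cells thinned, 3443 with only the 2 genotypes, 0 in cluster 12, in cluster 21, under the strict limit (adjusted p below 0.01, log2 fold change beyond 1) and with the replicate block, and 0 to 3752 with a mouse left out. In the NELF-B cKO 0 became 81 by DESeq2 and 0 to 711 with a mouse left out (711 without NELF-B cKO replicate 1). Between the cKO genotypes 0 became 9 by DESeq2, 2 with free RNA subtracted and 0 to 22 with a mouse left out (22 without NELF-B cKO replicate 2). The cause was not tested.

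Of 518 log2 fold changes of members in Sertoli cells under an alternative, 468 kept their direction and side of the limit and 47 turned in sign, none of them called. In the NELF-B cKO, Amhr2 was -0.0091 by DESeq2, -0.0093 with RLE factors, -0.18 thinned, -0.17 with free RNA subtracted and -0.12 in the deep cluster. Inha was -0.12 thinned, -0.089 with free RNA subtracted and -0.037 in the deep cluster, Inhbb -0.40 thinned and -0.21 in cluster 12, Amh -0.17 and Kitl 0.25 in cluster 12, and Fst -0.13 with free RNA subtracted. In the TDP-43 cKO, Amhr2 was 0.031 without a filter, 0.057 in cluster 12 and 0.17 in cluster 21, Inhbb -0.024 in cluster 12 and Kitl -0.42 in cluster 21. Between the cKO genotypes Amh was -0.17 and Amhr2 0.039 thinned, Amhr2 0.11 with free RNA subtracted, Inha -0.092 in cluster 12 and Inhbb -0.16 in the deep cluster. With a mouse left out, the ranges in the NELF-B cKO were -0.90 to 0.87 for Amh, -0.23 to 0.23 for Amhr2, -0.10 to 0.48 for Fshr, -1.25 to 0.71 for Fst, -0.47 to 1.2 for Gdnf, -0.47 to 0.52 for Inha and -0.71 to 0.30 for Kitl. Between the cKO genotypes they were -0.39 to 1.39 for Amh, -0.24 to 0.22 for Amhr2, -0.77 to 0.55 for Cxcl12, -0.15 to 0.43 for Fshr, -0.10 to 0.89 for Inha and -0.034 to 0.17 for Inhbb, and in the TDP-43 cKO -0.18 to 0.081 for Amhr2. The levels kept within 1 SD in 193 of 200 cases, and the 7 others were of Amhr2, Cxcl12, Inha, Inhba and Kitl in immune cells and Inhbb in myoid cells at resolution 1.2, and of Fst in RS with no germ cell left out.

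The labels number the replicates alike in each genotype. Deviations from the group mean in Sertoli cells correlated at -0.67 to 0.30 for same-numbered mice and at -0.54 to 0.67 for differently numbered ones. With 2 mice in the NELF-B cKO group, their deviations mirror each other, so pairs with them cannot decide on pairing. Same-numbered control and TDP-43 cKO mice gave -0.19, 0.077 and 0.0057. The labels give the numbers no shared source, and they were not taken to pair the mice. With the replicate block 0 members were called, Amhr2 was 0.10 in the TDP-43 cKO and Inhbb -0.060 between the cKO genotypes. Depth limits Inhba, Cxcl12, Fst and Gdnf most, whose Sertoli sums in the control mice held 2, 3, 40 and 69 UMIs in all.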

Other observations

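Some values belong to no comparison above. Among the receptors, Acvr1, a type I receptor, was highest in Leydig cells (median 131 CPM) and Bmpr2, the type II receptor of BMPs, in endothelial cells (257 CPM). Fstl3, which like follistatin binds activin, had a median of 45.7 CPM in Sertoli cells, where Fst had 4.51 CPM. Nr5a1, which encodes SF-1, had medians of 79.2 CPM in Leydig cells and 54.9 CPM in Sertoli cells, the 2 cell types in which Amhr2 was highest. These are levels of RNA and say nothing of the proteins.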
